A study of Mus musculus with 58 samples.

Results

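Among the 16461 inserts of an INSERT-seq library in mouse embryonic stem cells, 199 (1.21%) lay in the lowest sorted bins of a reporter sort in both screens and yet had more RNA per integrated copy than the median insert. In INSERT-seq, cells take up short sequences at 1 genomic site downstream of a promoter, and each insert is counted in RNA and in genomic DNA (gDNA). The members were chosen by measured values of the same library. An insert had to have no spliced reference (14057 of the 16461) and at least 50 reads in each of the 3 unsorted libraries and in each of the 4 gDNA libraries of the total RNA screens. The inserts that met these conditions, called eligible below, numbered 7769. Of them 2098 (27.0%) had a mean bin of at most 2.5 in both sort-seq screens, and 2685 (34.6%) had a mean total RNA level of at least 0.5. The members are the inserts that met both conditions, 2.56% of the eligible inserts, 9.49% of those in the bottom bins and 7.41% of those with ample RNA. A level is the log2 share of an insert in the RNA library minus its log2 share in the gDNA library, less the median of the eligible inserts in that pair of libraries.

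The samples used here all came from F121-9 cells, an embryonic stem cell line from a cross of the 129 and CAST strains, grown with LIF and with inhibitors of MEK and GSK3. Run-on RNA (2 screens, labelled for 15 min in permeabilized cells), chromatin RNA (2 screens, numbered 2 and 3), total RNA (4 screens) and sort-seq (6 bins in each of 2 screens, and 3 unsorted libraries) were taken from untreated cells. These cells carried mKate2, a red fluorescent protein, behind the upstream antisense start site of Pou5f1 on the 129 allele, and TagBFP2, a blue fluorescent protein, on the C terminus of Oct4. Each insert, 175 nt long, stood 157 nt from that antisense start site and upstream of mKate2, and RNA was read from a primer in mKate2 221 nt downstream of it. The same reporter cells were transfected for 48 h with 40 nM of a mix of siRNAs against EXOSC3 (siRRP40, 3 cultures) or of a non-targeting siRNA (siNT, 3 cultures). For the last site, wild-type F121-9 cells, with no reporter named, carried the library 102 nt from the start site of 4930461G14Rik (14Rik) on the CAST allele, read from a primer 287 nt downstream (3 screens). Pou5f1 lies on chromosome 17 and 4930461G14Rik on chromosome 9, per RefSeq's annotation of GRCm38.p6. The labels do not say whether a cell line was a single clone.

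As background, RNA transcribed upstream and antisense of an active promoter is usually short-lived: polymerase often stops early, and the RNA exosome, a nuclease complex of which RRP40 (EXOSC3) is a core subunit, degrades it. Pou5f1 encodes Oct4, a transcription factor that embryonic stem cells need to stay pluripotent, and 14Rik is a long intergenic non-coding RNA. RNA from run-on, from chromatin and from whole cells samples transcripts from synthesis to steady state, while sort-seq reads how inserts distribute over cells sorted into bins. The labels name neither the sorted fluorescence nor the brightest bin. Over the eligible inserts, the mean bin went up with the total RNA level (Spearman's rho 0.53 in screen 1 and 0.50 in screen 2, across inserts that share these libraries). Levels average over all cells that carry an insert, so few cells with much RNA and many cells with little cannot be told apart. Inserts are given by their number in the files, which pair no number with a gene or sequence.

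Libraries held 507182 to 7437828 reads on references in the sorted bins, 1875834 to 14124056 in the unsorted cells, 2665226 to 94099800 in RNA and 1991728 to 48334996 in gDNA. Members had a median of 388 reads over the 6 bins of screen 1 (80 to 1274) and of 2356 in screen 2 (340 to 18656). In the gDNA paired with run-on and chromatin RNA every member had at least 64 reads. In the siNT, siRRP40 and 14Rik gDNA some had none. At least 50 gDNA reads in all 3 libraries of the group were found for 173 members in siNT, 177 in siRRP40 and 188 in 14Rik. Tests of RNA against gDNA in siNT and at 14Rik used only these members. The siRRP40 comparison needed those reads in the siNT libraries too, which 169 members had.

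The members sat mostly in the bin next to the lowest one. By design their mean bins were at most 2.5, with a median of 2.02 in screen 1 (1.28 to 2.49) and of 2.06 in screen 2 (1.33 to 2.50). Over all eligible inserts the medians were 3.13 and 3.27. After each bin was scaled to the same total, the median member had 28.8% of its reads in bin 1, 44.4% in bin 2, 18.0% in bin 3 and 2.56% in bin 4 of screen 1. In screen 2 these shares were 15.4%, 61.8%, 14.4% and 1.74%. Bin 2 held the largest share for 139 members (69.8%) in screen 1 and for 183 (92.0%) in screen 2, bin 1 for 52 and 14, and bin 3 for 8 and 2. The inserts that shared the bottom bins but lacked ample RNA (1899) leaned further down: bin 1 held the largest share for 61.3% of them in screen 1 and for 56.1% in screen 2. The sum of bins 4 to 6 had a median of 3.93% of a member's reads in screen 1 and 2.75% in screen 2, and a maximum of 28.9% and 22.0%. The upper bins thus held few reads of most members. The sort and the RNA chose both groups, so their positions are not tested against each other.

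The mean bins of both screens correlated at 0.92 (Pearson) over the eligible inserts and at 0.48 over the members, whose range the rule had cut. The authors' deposited mean-bin scores gave a second computation of the same sort. They correlated with the mean bins used here at 0.99 in each screen, over 14419 and 14561 inserts. The scores had medians of 2.16 and 2.29 for the members, against 3.03 and 3.16 over the eligible inserts. By these scores 184 members were at most 2.5 in screen 1, 139 in screen 2, and 132 in both. The rest lay just above, up to 2.66 in screen 1 and 2.73 in screen 2, so membership near the limit turned on how the mean was taken. On the mean bins used here, the higher of the values from both screens was 2.49, 2.49 and 2.50 for the 3 members nearest the limit and 2.50, 2.51 and 2.51 for the 3 inserts next outside it.

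The members with the lowest mean bins were sequence_14730 (1.28 in screen 1 and 1.43 in screen 2) and sequence_15046 (1.30 and 1.43). Those with the highest were sequence_02910 (2.48 and 2.47) and sequence_01084 (2.48 and 2.47). These were picked by the average of both screens, under a limit of 2.5 in each, so like values in both screens are partly built in. Here and below, the highest and lowest members are those with a mean of at least 200 gDNA reads.

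Total RNA chose the members too, so its levels are a description. Their median level was 0.96, 0.94, 1.10 and 1.23 in screens 1 to 4, a mean of 1.06 ± 0.13 (SD, n = 4 screens), or 2.08-fold the median insert. The mean level over screens lay between 0.50 and 2.66: 107 members were under 1, 82 from 1 to 2, and 10 at 2 or above. Levels were above 0 in all 4 screens for 149 members and at least 0.5 in all 4 for 78, while 50 were under 0 in at least 1 screen. When each screen was left out in turn, 142 members kept a mean of at least 0.5 every time. The other 57 fell under it without at least 1 of the screens. The mean level of the 3 members nearest the limit was 0.50, 0.51 and 0.51, against 0.50 for the 3 inserts next outside it. Other inserts with ample RNA, outside the bottom bins (2486), averaged 1.27 ± 0.14, and the other bottom-bin inserts averaged -1.20 ± 0.18 (SD, n = 4 screens).

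The highest total RNA was that of sequence_00875, with levels of 2.62, 3.28, 2.30 and 2.42 in screens 1 to 4, and of sequence_05172, with 3.98, 2.08, 1.75 and 2.00. The first stood high in every screen and the second stood apart in screen 1. At the other end, sequence_02550 had 0.34, -0.35, 0.71 and 1.31 in screens 1 to 4, and sequence_16371 had -0.17, 1.26, 0.08 and 0.84. Both had screens on either side of the median insert.

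The siNT cultures are the first RNA at Pou5f1 that did not choose the members, and most members had ample RNA there as well. The median level of the 199 members was 1.01, 1.27 and 1.04 in cultures A, B and C, a mean of 1.11 ± 0.14 (SD, n = 3) or 2.15-fold. Ample-RNA inserts outside the bottom bins averaged 1.38 ± 0.07, and other bottom-bin inserts averaged -1.65 ± 0.01 (SD, n = 3 each). Culture by culture, the medians of the 3 groups did not overlap. Over the members with at least 50 gDNA reads in every culture the average was 1.09 ± 0.16 (SD, n = 3). Of these 173, 138 were above 0 in all 3 cultures and 4 under 0 in all 3. Eligible inserts with those reads gave 2631 and 2479 of 6467, and ample-RNA inserts outside the bottom bins 1880 and 34 of 2136.

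RNA was tested against gDNA with edgeR's quasi-likelihood test with the culture as a block and Benjamini-Hochberg adjustment over all 10406 inserts tested. Of the 173 members tested, 125 (72.3%) had more RNA than gDNA share at an adjusted p under 0.05, against 33.7% of all inserts tested and 34.9% of the eligible ones. For 101 of these the difference was at least 2-fold, a call made for 1784 of the 6467 eligible inserts tested. Less RNA than gDNA share was called for 2 members (1.16%), against 30.7% of all inserts tested and 29.0% of the eligible ones. The members' median log2 fold change was 1.17, against 0.02 over all inserts tested. The share called higher was 82.6% among ample-RNA inserts outside the bottom bins (1764 of 2136) and 3.66% among other bottom-bin inserts (57 of 1558). Differences between these shares were not tested. Calls depend on where the centre is put. With library totals in place of TMM scaling the median over all inserts moved to -0.79, the calls over all inserts to 1904 higher and 4961 lower (against 3507 and 3192), and the members' calls to 52 higher and 15 lower. The members' median log2 fold change was then 0.36.

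The largest gain called was that of sequence_01084, with levels of 3.18, 3.99 and 3.35 in siNT cultures A, B and C (log2 fold change 3.58 ± 0.22 SE, adjusted p = 3.7e-08). The next was sequence_00875, with 2.04, 2.70 and 3.52 (2.83 ± 0.29 SE, adjusted p = 3.33e-06). Both were high in every culture, and sequence_01084 was also among the members with the highest mean bins. The inserts called lower ran against the level that had chosen them. Sequence_15067 had -4.61, -3.53 and -3.43 in siNT (log2 fold change -3.78 ± 0.51 SE, adjusted p = 3.02e-05) and total RNA levels of -0.53, 7.15, 2.84 and -1.73 in screens 1 to 4. Sequence_15046 had -1.85, -1.15 and -1.03 in siNT (-1.27 ± 0.32 SE, adjusted p = 0.00348) and 0.26, 6.22, 2.62 and -1.18 in the total RNA screens. In screen 2 they drew 74592 and 75334 RNA reads on 508 and 980 gDNA reads. Both were thus low in every siNT culture and highest in total RNA screen 2, the screen without which sequence_15067 would not have been a member.

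Knockdown of the exosome subunit left no call among the members. Their median level was 1.17, 1.20 and 1.14 in siRRP40 cultures A, B and C, a mean of 1.17 ± 0.03, against 1.11 ± 0.14 in siNT cultures (SD, n = 3 each). The cultures of both treatments overlapped. The change in RNA per gDNA was tested as an interaction of kind of library with treatment (edgeR quasi-likelihood, culture as block). At an adjusted p under 0.05 it called 0 of 169 members tested, and 0% of all 9812 inserts tested and 0% of the 6243 eligible ones. At an unadjusted p under 0.05 it gave 10 members higher and 4 lower, 14 of 169, against 833 of all 9812. DESeq2 called 32 of the 9812 inserts higher in siRRP40 cells, 1 of them a member, and 26 lower, none of them a member. The members' median log2 fold change was 0.05, between -0.24 and 0.41 at its quartiles. That of other bottom-bin inserts was 0.16, that of ample-RNA inserts outside the bottom bins -0.07, and that of all inserts tested 0.00. The SE of a single member's change had a median of 0.38. The labels give no RRP40 level, and the knockdown itself was not measured in these files.

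At 14Rik the members' RNA was again above that of the median insert, and single members varied more among screens, with a median SD of 0.61 over the 14Rik screens and of 0.42 over the siNT cultures. The same held for all eligible inserts, at 0.65 and 0.52. The members' median level was 0.74, 1.06 and 0.98 in screens 1 to 3, a mean of 0.93 ± 0.17 (SD, n = 3) or 1.90-fold. Ample-RNA inserts outside the bottom bins averaged 1.20 ± 0.15, and other bottom-bin inserts averaged -1.33 ± 0.20. Of the 188 members with at least 50 gDNA reads in every screen, 118 were above 0 in all 3 screens and 10 under 0 in all 3. Eligible inserts with those reads gave 2622 and 2582 of 7433, and ample-RNA inserts outside the bottom bins 1784 and 68 of 2411. Against gDNA (edgeR quasi-likelihood, screen as block, adjusted over 14755 inserts), 89 of the 188 (47.3%) were called higher, 82 of them by at least 2-fold. A higher call was made for 24.4% of all inserts tested and 24.9% of the eligible ones. It was at least 2-fold for 1747 of the 7433 eligible inserts tested. Lower RNA was called for 2 members (1.06%), against 18.5% of all inserts tested and 18.0% of the eligible ones. The members' median log2 fold change was 0.93, against -0.08 over all inserts tested. Among ample-RNA inserts outside the bottom bins 59.5% were called higher, and among other bottom-bin inserts 2.73%. Without 14Rik screen 3 the members called higher numbered 37, and those over all inserts 1799 against 3598. With library totals as the scaling, 32 members were called higher and 8 lower (1808 higher and 4776 lower over all inserts), and the members' median was 0.22, against -0.79 over all inserts.

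The largest gains called at 14Rik were those of sequence_01037, with levels of 0.77, 4.84 and 3.31 in screens 1 to 3 (log2 fold change 3.08 ± 0.79 SE, adjusted p = 0.0153), and of sequence_02170, with 4.11, 1.67 and 2.98 (2.98 ± 0.52 SE, adjusted p = 0.00352). Both were above the median insert in every screen but differed several-fold among screens. Neither was tested at Pou5f1 in siNT cells: sequence_02170 had 0 reads in all siNT RNA and gDNA libraries, and sequence_01037 had 34, 18 and 26 gDNA reads. The members called lower were sequence_10765, with -3.28, -2.17 and -1.88 (-2.38 ± 0.51 SE, adjusted p = 0.00751), and sequence_08423, with -2.97, -0.85 and -2.93 (-2.23 ± 0.56 SE, adjusted p = 0.0149). These inserts were under the median insert in every 14Rik screen. Their total RNA at Pou5f1, which chose them, averaged 0.61 and 0.58. In siNT cultures A, B and C sequence_10765 had 0.55, 0.46 and 0.01, and sequence_08423 had 0.06, 1.19 and 0.44. Neither was called higher there (edgeR adjusted p = 0.346 and 0.252). Without 14Rik screen 3 the calls of sequence_01037 and sequence_08423 were lost.

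Of the 199 members, 70 were called higher both in siNT cells at Pou5f1 and at 14Rik, 49 in siNT alone, 8 at 14Rik alone, and 34 at neither. These were 35.2%, 24.6%, 4.02% and 17.1% of the members, against 16.2%, 11.8%, 4.11% and 21.2% of the eligible inserts, so the share called at 14Rik alone was that of the background. None was called higher at one site and lower at the other. Such calls were rare among the eligible inserts too: 0.19% were higher in siNT and lower at 14Rik, and 0.39% the reverse. The remaining members had a lower call or lacked the gDNA reads for a test at one or both sites. A call at 1 site alone is no test of a difference, which was made directly as an interaction of kind of library with group on 14Rik and siNT libraries. The sites differ together with the cell line and the siRNA transfection, so these cannot be told apart. Of 165 members tested, 3 had more RNA per gDNA at 14Rik (5.91% of all 9812 inserts tested, 5.29% of the eligible ones) and 9 had less (4.35% and 3.82%). The members' median log2 fold change was -0.12, against -0.02 over all inserts tested. Called members are few and depend on the libraries. Without 14Rik screen 1, 2 or 3 there were 5, 1 and 0 higher and 10, 14 and 6 lower. Without siNT culture A, B or C there were 0 higher and 3, 3 and 4 lower. Over all inserts these fits called 216 to 659 higher and 221 to 616 lower.

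Members higher at 14Rik included sequence_02417, with levels of 2.04, 2.58 and 2.42 at 14Rik against 1.10, 0.03 and 1.04 in siNT (log2 difference 1.62 ± 0.42 SE, adjusted p = 0.0309), and sequence_04125, with 2.43, 2.32 and 2.19 against 0.92, 1.21 and 0.53 (1.42 ± 0.36 SE, adjusted p = 0.0276). Members lower at 14Rik included sequence_02969, with -4.03, 0.07 and -0.19 at 14Rik against 2.44, 2.40 and 2.79 in siNT (-3.75 ± 0.94 SE, adjusted p = 0.0267), and sequence_08423, with -2.97, -0.85 and -2.93 against 0.06, 1.19 and 0.44 (-2.87 ± 0.76 SE, adjusted p = 0.0332). In all 4 the libraries of both groups did not overlap. They were picked as the largest called differences between these libraries, so this is partly built in. Sequence_02969 was lowest in 14Rik screen 1, with 186 RNA reads on 3124 gDNA reads, and without that screen its log2 difference was -2.55, still called.

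Chromatin RNA, the RNA retained with the chromatin pellet, showed the members above the median insert, by less than in total RNA. Chromatin and run-on levels were not tested, because chromatin screens 2 and 3 and run-on screen 1 share gDNA libraries with the member rule. The members' median chromatin level was 0.43 in screen 2 and 0.58 in screen 3, a mean of 0.51 ± 0.11 (SD, n = 2) or 1.42-fold. Ample-RNA inserts outside the bottom bins averaged 0.67 ± 0.01, and other bottom-bin inserts averaged -0.59 ± 0.04. A level of at least 0.5 was found for 89 members (44.7%) in screen 2, against 31.2% of eligible inserts, and for 108 (54.3%) in screen 3, against 31.8%. Above 0 in both screens were 33.6% of eligible inserts, 67.4% of ample-RNA inserts outside the bottom bins, and 114 members (57.3%). In both screens 13 members were under 0, a count not given here for the other groups. The highest were sequence_14730, with 3.27 and 4.49, and sequence_13435, with 1.23 and 3.97. The lowest were sequence_03013, with -7.47 and 0.51, and sequence_01334, with -2.43 and -0.26. The first of the low ones had 0 RNA reads in chromatin screen 2, so its value there is set by the prior count of 2.

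Run-on RNA, made by polymerases engaged at the time of permeabilization, showed an excess close to that in chromatin RNA. The members' median level was 0.57 in screen 1 and 0.34 in screen 2, a mean of 0.45 ± 0.16 (SD, n = 2) or 1.37-fold. Ample-RNA inserts outside the bottom bins averaged 0.50 ± 0.23, and other bottom-bin inserts averaged -0.45 ± 0.37. Screen 2 has a gDNA library that the rule did not use. A level of at least 0.5 was found for 110 members (55.3%) in screen 1, against 32.4% of eligible inserts, and for 77 (38.7%) in screen 2, against 26.7%. Above 0 in both screens were 31.7% of eligible inserts, 55.2% of ample-RNA inserts outside the bottom bins, and 108 members (54.3%). In both screens 26 members were under 0. So were 2457 of 7759 eligible inserts and 269 of 2484 ample-RNA inserts outside the bottom bins. Those inserts all had at least 50 gDNA reads in both screens. The highest were sequence_00056, with 2.48 and 1.04, and sequence_08423, with 1.41 and 2.02, which was the insert lower at 14Rik. The lowest were sequence_02447, with -2.61 and -4.92, and sequence_13552, with -3.28 and -2.04. These last inserts were the lowest in run-on RNA while their total RNA levels, which chose them, averaged 0.71 and 1.14. Total RNA that did not choose them gave no such excess for sequence_13552. It had 1.87, -0.71 and -0.67 in siNT cultures A, B and C, and -0.81, -1.26 and -0.88 in siRRP40 cultures. Sequence_02447 had 0, 0 and 4 gDNA reads in siNT cultures, too few to place it there. Of the 125 members called higher in siNT cells, 70 (56.0%) were above 0 in both run-on screens and 16 (12.8%) under 0 in both. Among the 1764 ample-RNA inserts outside the bottom bins with that call, the shares were 59.6% and 9.24%, and among all 2257 eligible inserts with it 55.7% and 11.3%, near those of the members.

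Where stages of a screen share 1 gDNA library, the gDNA drops out of their difference. Total RNA screen 4 minus run-on screen 1 had a median of 0.74 over the members, 0.79 over ample-RNA inserts outside the bottom bins and 0.14 over the eligible inserts. Total minus chromatin RNA was 0.48 in screen 2 and 0.69 in screen 3 for the members, against 0.50 and 0.62 for ample-RNA inserts outside the bottom bins. Total RNA exceeded run-on RNA for 161 members (80.9%) and chromatin RNA for 153 (76.9%) in screen 2 and 161 (80.9%) in screen 3. Over the eligible inserts these shares were 54.6%, 54.0% and 53.8%, and over ample-RNA inserts outside the bottom bins 83.3%, 79.6% and 82.2%. By each of these differences the members stood close to ample-RNA inserts outside the bottom bins and away from the other bottom-bin inserts (-0.61, -0.39 and -0.47). Total RNA chose both ample groups, so these differences are a description.

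The members' total RNA was lower than that of other ample-RNA inserts, so the groups were also set side by side within ranges of the mean total RNA level, ranges chosen after the values were seen. From 0.5 to 1 there were 107 members and 933 others, from 1 to 1.5 there were 54 and 710, from 1.5 to 2 there were 28 and 510, and at 2 or above 10 and 333. The members' share of ample-RNA inserts was 10.3%, 7.07%, 5.20% and 2.92% in that order. In the lowest range, the average of the library medians was 0.80 for members and 0.85 for others in siNT, 0.70 and 0.78 at 14Rik, 0.36 and 0.36 in chromatin RNA, and 0.39 and 0.26 in run-on RNA. From 1 to 1.5 they were 1.23 and 1.35 in siNT, 1.07 and 1.20 at 14Rik, 0.44 and 0.61 in chromatin RNA, and 0.52 and 0.53 in run-on RNA. In the range from 1.5 to 2 these were 1.81 and 1.85 in siNT, 1.08 and 1.49 at 14Rik, 0.71 and 0.89 in chromatin RNA, and 0.52 and 0.67 in run-on RNA. At 2 or above they were 2.71 and 2.43 in siNT, 1.91 and 1.87 at 14Rik, 1.22 and 1.26 in chromatin RNA, and 0.54 and 0.83 in run-on RNA, over only 10 members. The siNT averages of the members were thus under those of the others in the lower 3 ranges and above them at 2 or above. Run-on averages were higher for the members in the lowest range, nearly equal from 1 to 1.5, and lower for the members above that. In every range the medians of single libraries overlapped between members and others, in siNT (n = 3) and in run-on RNA (n = 2). In chromatin RNA (n = 2) they did not overlap from 1 to 1.5 (0.41 to 0.46 for members, 0.60 to 0.62 for others). Nor did they from 1.5 to 2 (0.56 to 0.86 and 0.89 to 0.90). At 14Rik (n = 3) they did not overlap from 1.5 to 2 (1.04 to 1.12 and 1.35 to 1.62). In the remaining ranges chromatin and 14Rik medians overlapped. These differences were not tested.

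Across the 199 members, mean levels in siNT and siRRP40 cells correlated at 0.83 (Pearson), and siNT with total RNA at 0.43, chromatin RNA at 0.32, 14Rik at 0.29 and run-on RNA at 0.02. Over the 7769 eligible inserts these were 0.91, 0.81, 0.53, 0.63 and 0.52. The members span a narrower range and some have few gDNA reads in siNT libraries, so these are descriptions across inserts, which share their libraries. Libraries of 1 stage also correlated weakly over the members, at -0.07 to 0.29 between total RNA screens, 0.26 between chromatin screens and 0.33 between run-on screens, against 0.71 to 0.74 between siNT cultures. Low correlations between stages therefore do not show that stages rank the members differently. The mean bin over both screens correlated with none of siNT, 14Rik, run-on or chromatin levels beyond 0.18 in size over the members. Levels above 0 in all 17 RNA libraries were found for 36 members (18.1%). The shares were 9.63% of eligible inserts and 28.3% of ample-RNA inserts outside the bottom bins. These libraries include the total RNA screens that chose the members, so the excess over eligible inserts is partly built in. In every total RNA screen 74.9% of members were above 0, against 30.4% of eligible inserts. The chromatin libraries and a run-on library also share gDNA with the member rule.

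Sequence_14730 combined the lowest mean bins with high levels in chromatin, run-on, siNT and siRRP40 RNA. By its mean total RNA level it was under the members' median, at 0.89 against 0.97. It had levels of -0.32, 2.12, 0.48 and 1.27 in total RNA screens 1 to 4, 2.27 and 1.11 in run-on RNA, and 3.84, 3.93 and 4.31 in siRRP40 cells against 3.05, 2.24 and 2.76 in siNT cells. The siRRP40 and siNT cultures did not overlap, yet the difference missed the threshold (log2 1.30 ± 0.29 SE, edgeR adjusted p = 0.195, 3 cultures each). At 14Rik its levels were 0.87, -1.35 and 1.39, on both sides of the median insert.

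Members were not spread evenly over the insert numbers, whose meaning the labels do not give. Numbers 1 to 6000 held 144 members (72.4%) and 43.6% of the eligible inserts, and 6001 to 14000 held 22 (11.1%) and 37.9%. Numbers 14001 to 15000 held 18, and 15001 to 16461 held 15. In these ranges 4.25%, 0.75%, 2.79% and 1.89% of the eligible inserts were members, and 58.4%, 11.8%, 29.1% and 21.7% had ample RNA, the same order. Of the inserts with ample RNA, 7.28%, 6.36%, 9.57% and 8.72% lay in the bottom bins, so within each range a similar share of ample-RNA inserts were members. Consecutive numbers were held by 8 pairs of members, a count not set against an expected one.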

How the data were processed

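Of 58 samples, 46 with insert counts were used, and the other 12 (H3K4me3 ChIP, nascent RNA) were not analysed here. Per the submitters' processing notes, cutadapt 1.14 and Bowtie2 2.3.4.3 were used. The counts, which the authors deposited untransformed, give mapped reads for each reference sequence. Per the file names, RNA reads were set against spliced as well as unspliced references, and DNA reads against unspliced ones alone. All counts were even, and 45.7% to 56.7% of a library's reads had no reference. The deposited scores are the authors' mean sort bin of an insert. How they scaled the bins is not stated, and 22 other columns of that table were not used.

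The members and lists were chosen with earlier results of these data known. An insert's RNA count added its spliced and unspliced reads, and levels used a prior count of 2. The mean bin used each bin library scaled to an equal total. Tests used edgeR 4.0.16 in R 4.3.3 (quasi-likelihood, TMM, Benjamini-Hochberg over all inserts tested) for inserts that reached 50 reads in each gDNA library of a fit, with DESeq2 1.42.0 as an alternative, and were tested on simulated data. Each p-value measures only the spread between these libraries, and PCR reads without molecular identifiers are not independent molecules. The inserts named are, per tested comparison, the 2 members with the largest called change in each direction, of the same sign in every replicate and with a mean of at least 200 gDNA reads, and for the other readouts the 2 highest and 2 lowest. Sequence_14730 in siRRP40 and 14Rik libraries, and sequence_05172 among screens, were described further after their values were seen.

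RNA and gDNA libraries of the same number or letter were paired as a block. Their deviations from group means correlated at 0.29 to 0.30 in siNT, 0.31 to 0.34 in siRRP40 and 0.04 to 0.28 at 14Rik, where pairing rests on the shared number. Alternatives covered scaling, prior count, read minimum, block, tool and left-out libraries.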

Additional observations from a re-analysis of the deposited data

Results flagged for a closer look

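In total RNA, sequence_05172 had a level of 3.98 in screen 1, far from the 2.08, 1.75 and 2.00 of screens 2 to 4 by Dixon's test of the gap over the range. Such a gap was found for 11 of the 199 members (5.53%) and for 6.01% of eligible inserts, and chance flags about 1 in 20 groups of 4.

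The difference of RNA per gDNA between 14Rik and siNT cells at Pou5f1, tested as an interaction in edgeR, passed an adjusted p under 0.05 for 12 of 165 members, 3 higher (1.82%) and 9 lower (5.45%), against 5.91% and 4.35% of all inserts tested. The named ones changed by 1.62 (sequence_02417), 1.42 (sequence_04125), -3.75 (sequence_02969) and -2.87 (sequence_08423) on the log2 scale. Each kept its direction in every alternative fit that tested it, and each call was lost whichever siNT culture was left out, where the log2 difference of sequence_02969 was still -3.86 to -4.09. The calls of sequence_02417, sequence_04125 and sequence_08423 were also lost without 14Rik screen 3, that of sequence_02417 without screen 2 and with no gDNA minimum beyond 1 read, that of sequence_04125 with no such minimum, and that of sequence_08423 without screen 1 and without the replicate block (-2.33).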

How the results depend on the processing

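Under the alternatives run, no value with a called direction changed sign. The number of members was 17 with at least 200 reads, 289 with at least 20, and 202 to 208 without 1 of the 4 total RNA screens. It was 139 with bins not scaled and 174 with the median taken over all inserts past the read minimum. By sort-seq screen 1 or 2 alone it was 272 and 280. Library totals gave 52 members higher and 15 lower in siNT, and 32 and 8 at 14Rik. DESeq2 gave 1 higher in siRRP40, 6 lower at 14Rik, and 6 higher and 24 lower for 14Rik against siNT. Over all inserts it gave 32 higher in siRRP40, 4063 lower at 14Rik, and 972 higher and 975 lower for 14Rik against siNT. With no replicate block 5 members were lower for 14Rik against siNT, and 261 over all inserts. Over all inserts 3038 were then higher and 2884 lower in siNT, and 3414 and 2470 at 14Rik. There RNA screens 1 and 3 correlated best with their own gDNA and screen 2 did not. The block changed no other members' count by over 1.5 times. With no gDNA minimum beyond 1 read, 1 member and 711 of all 13584 inserts tested were higher for 14Rik against siNT. Leaving out 1 library gave 37 to 92 higher and 1 to 6 lower at 14Rik, and 0 to 5 higher and 3 to 14 lower for 14Rik against siNT. Over all inserts these fits gave 1799 to 3837 higher and 1017 to 3583 lower at 14Rik. For 14Rik against siNT they gave 216 to 659 and 221 to 616. Alternatives chosen after seeing the data moved some counts: the 142 members kept without any 1 screen gave 1 lower in siNT, 0 lower at 14Rik, 1 higher and 3 lower for 14Rik against siNT, and median levels of 1.31 in siRRP40 and 1.31 in siNT. The 132 members with deposited mean bins at most 2.5 gave 59 higher and 0 lower at 14Rik. These subsets hold fewer members, and for the other settings the cause was not tested. Depth limits the siNT and siRRP40 tests through gDNA reads.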
